A study of Mus musculus with 13 samples.

Results

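The posterior Hox genes of paralogue groups 9 to 11 were examined in presumptive lumbar intervertebral disc (IVD) and vertebrae of mouse embryos with and without Tgfbr2, the type II receptor for TGF-β. The group was formed from every probe set on the array whose gene name was exactly Hoxa9, Hoxb9, Hoxc9, Hoxd9, Hoxa10, Hoxc10, Hoxd10, Hoxa11, Hoxc11 or Hoxd11. This gave 11 probe sets of 9 of the 10 genes, out of 45037 probe sets tested and 18194 named genes. Hoxc11 was the name of no single-gene probe set and has no value here. Hoxa9 and Hoxa10 had 2 probe sets each and every other gene had 1.

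RNA was taken by laser capture microdissection, in which a laser cuts chosen areas from a frozen section, from E13.5 embryos, and 13 arrays were hybridized. Mutant IVD (4 arrays, genotype Cre+;Tgfbr2lox/lox) and mutant vertebrae (3 arrays, genotype spelled Cre+;Tgrbr2lox.lox in the labels) came from embryos in which Cre was driven by the Col2a promoter, active in cartilage-forming sclerotome. Control IVD (3 arrays) and control vertebrae (3 arrays) came from embryos of genotype Cre-;Tgfbr2lox/wt. The arrays of a group are described as biological replicates, and the control tissues as coming from the same mice. No group carried Cre without the deletion, so the presence of Cre and the loss of Tgfbr2 cannot be told apart. Every array measured a bulk extract, in which fewer cells of a type and less RNA per cell cannot be told apart. A deposited value is a log2 signal relative to the median of that probe set over the 13 arrays, so it tells how arrays differ and nothing of how strongly a gene is expressed.

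Hox genes encode homeodomain transcription factors and lie in 4 clusters, Hoxa, Hoxb, Hoxc and Hoxd. Within a cluster their order matches the order in which they are expressed along the body axis, and genes at the same place in different clusters form a paralogue group. In the mouse the vertebral formula is read from them. Group 9 genes act in the posterior thoracic region, group 10 genes together suppress ribs and so define the lumbar region, and group 11 genes act in the formation of the sacrum. The proteins bind DNA with Pbx and Meis cofactors, Cdx proteins and the TGF-β family ligand Gdf11 act upstream of the posterior genes, and Polycomb and trithorax complexes keep Hox genes off or on. The same genes pattern the limbs, the kidney and the motor neurons of the spinal cord.

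Between mutant IVD and control IVD, 9 of 9 measured genes had a higher mean in mutant IVD, as did 58.2% of all genes. The count includes Hoxb9, at 0.01 on the log2 scale, and Hoxd11, at 0.07, which were level within the error. On single probe sets the largest differences were those of Hoxd10, Hoxa10, Hoxc10, Hoxa9 and Hoxd9, each with 1 probe set more than 2-fold higher. On the mean of its probe sets Hoxa9 was at 0.80, below Hoxc9 at 0.83. No member passed limma's test at an adjusted p under 0.05, after Benjamini-Hochberg adjustment across the whole array, and of all probe sets tested 0% passed (1411 had an unadjusted p under 0.05). Among the 11 member probe sets, 5 were 2-fold higher at an unadjusted p under 0.05, against 0.469% of all probe sets. In 7 of the 11 every mutant IVD array lay above every control IVD array, which held for 3.68% of all probe sets, and 8 of the 11 were higher at an unadjusted p under 0.05, against 2.28%. The median difference over the 9 genes was 0.83 on the log2 scale, and that over all genes 0.04.

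The group 10 genes differed most. Hoxd10, which together with Hoxc10 specifies motor neurons of the lumbar cord besides its part in the vertebrae, had log2 values of 0.25, 0.63, 1.47 and 0.92 in mutant IVD 1 to 4, against -0.64, -1.91 and -1.52 in control IVD 1 to 3. All mutant IVD arrays were above the median of the series and all control IVD arrays below it. The difference was 2.17 ± 0.65 (SE), or 4.50-fold, with a 95% confidence interval of 0.75 to 3.59 (unadjusted p = 0.00601, limma adjusted p = 1). Hoxa10, also known for its role in the development of the uterus, had values of 0.48, 0.77, 0.00 and 1.20 in mutant IVD 1 to 4 on probe set 1431475_a_at, against -0.65, -1.13 and -1.37 in control IVD 1 to 3. The groups did not overlap, and the lowest mutant IVD array, number 3, was well above the highest control IVD array. The difference was 1.66 ± 0.32 (SE), 3.17-fold, with an interval of 0.96 to 2.37. This was the member with the smallest p in the comparison (unadjusted p = 0.000245, limma adjusted p = 0.973), and it ranked 11 of 45037 probe sets. On the other Hoxa10 probe set, 1446408_at, the values were 0.58, 0.79, 0.20 and 0.00 in mutant IVD, against -0.08, -0.24 and 0.02 in control IVD. Mutant IVD 4 fell within the control range there, and the difference was smaller, at 0.49 ± 0.21 (SE). The Hoxa10 probe sets thus differed in size but not in direction, and they are not independent measurements of the gene's RNA. Hoxc10 had values of 1.79, 1.13, 0.87 and 0.997 in mutant IVD 1 to 4, against 0.07, -0.07 and -1.37 in control IVD 1 to 3. Every mutant IVD array was clear of the control IVD arrays, and control IVD 3 was far below the other two. The difference was 1.65 ± 0.42 (SE), 3.14-fold, with an interval of 0.73 to 2.57 (unadjusted p = 0.00204, limma adjusted p = 1). Without control IVD 3 it was 1.19.

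**Figure D1:**
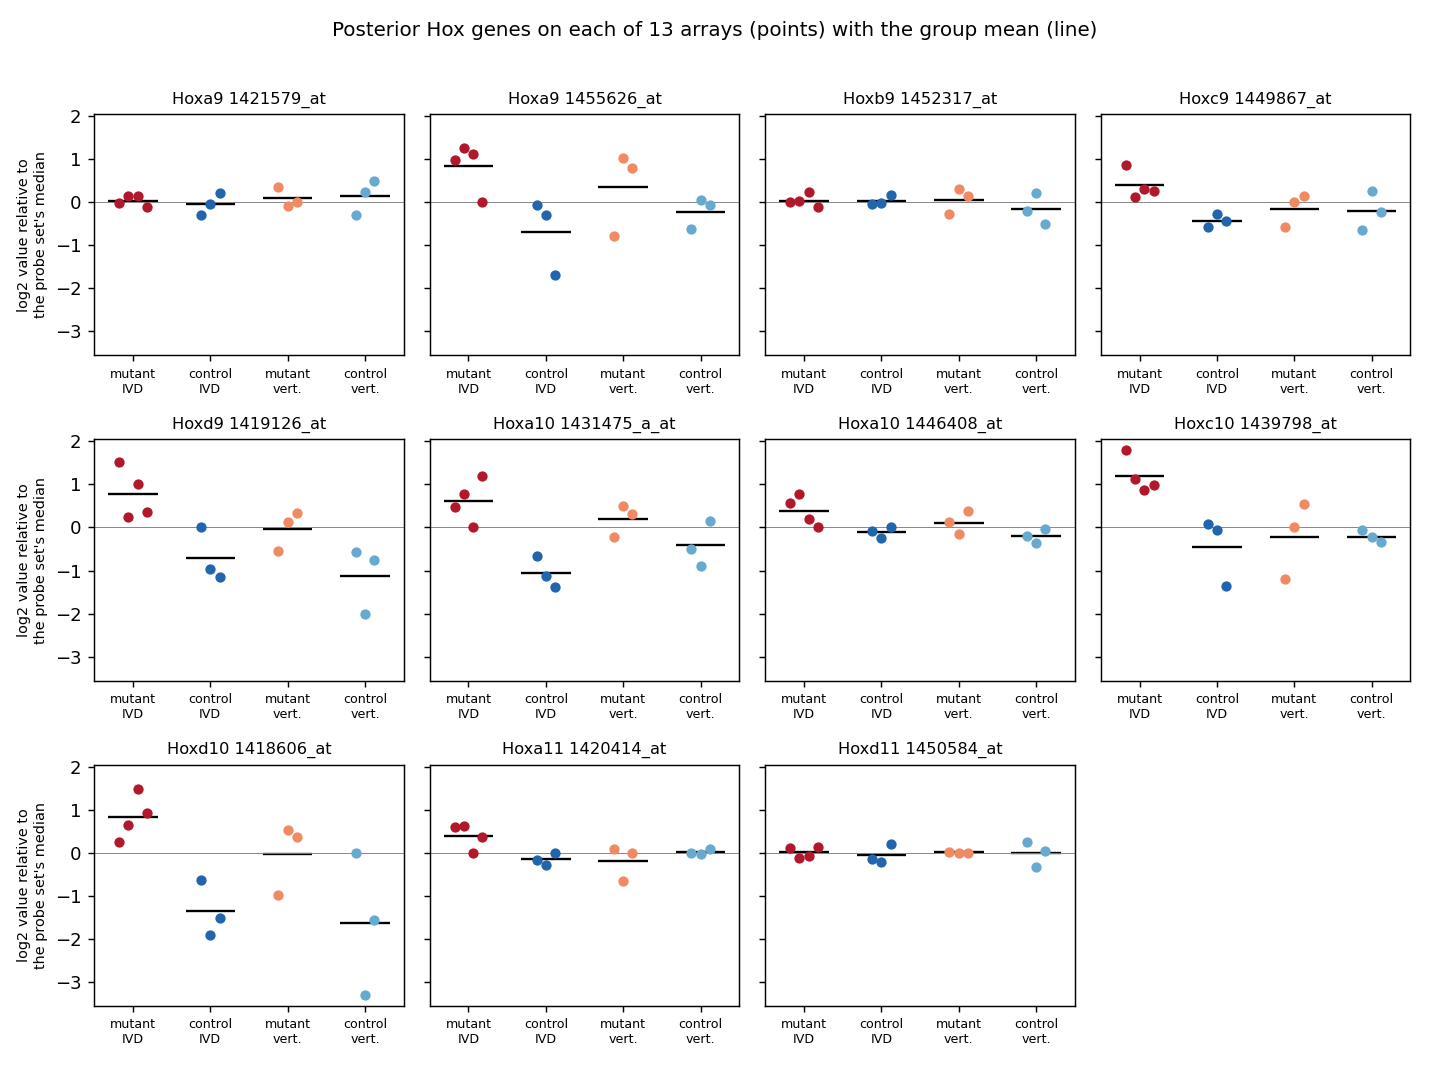
Log2 value of each of the 11 probe sets (vertical axes, relative to the probe set's median over 13 arrays) in mutant IVD, control IVD, mutant vertebrae and control vertebrae, with 1 point per array and a line at the group mean. For Hoxc10 the 4 mutant IVD points lie between 0.87 and 1.79, above every other array of the series, while Hoxb9 and Hoxd11 lie near 0 in all groups.

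The group 9 genes were mixed. Hoxd9, which acts with Hoxa9 in the upper forelimb skeleton, had values of 1.52, 0.25, 1.001 and 0.36 in mutant IVD 1 to 4, against 0.00, -0.95 and -1.15 in control IVD 1 to 3. The groups did not overlap, although mutant IVD 2 and control IVD 1 lay close to each other. The difference was 1.48 ± 0.43 (SE), 2.79-fold, with an interval of 0.55 to 2.41 (unadjusted p = 0.00457, limma adjusted p = 1). Hoxa9, also a regulator of blood stem cells, had values of 0.98, 1.25, 1.12 and 0.00 in mutant IVD 1 to 4 on probe set 1455626_at, against -0.07, -0.29 and -1.69 in control IVD 1 to 3. Mutant IVD 4 was only just above control IVD 1, and control IVD 3 was the lowest of the series. The difference was 1.52 ± 0.49 (SE), 2.87-fold (unadjusted p = 0.00941, limma adjusted p = 1), and 1.02 without control IVD 3. The other Hoxa9 probe set, 1421579_at, stayed between -0.12 and 0.15 in mutant IVD and between -0.28 and 0.22 in control IVD. Its difference was 0.08, with an interval of -0.37 to 0.53, so the Hoxa9 probe sets did not show the same size of difference. Hoxc9, which sets the thoracic identity of motor neurons, had values of 0.86, 0.13, 0.32 and 0.26 in mutant IVD 1 to 4, against -0.58, -0.27 and -0.44 in control IVD 1 to 3. All mutant IVD arrays were above 0 and all control IVD arrays below it, and the difference was 0.83 ± 0.26 (SE), 1.77-fold (unadjusted p = 0.00723, limma adjusted p = 1). Hoxb9 lay between -0.12 and 0.24 in mutant IVD and between -0.05 and 0.16 in control IVD. Its difference was 0.01, with an interval of -0.42 to 0.44.

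Of group 11, Hoxa11, a regulator of the forearm skeleton and of the kidney together with Hoxd11, had values of 0.59, 0.62, 0.00 and 0.36 in mutant IVD 1 to 4, against -0.17, -0.30 and -0.003 in control IVD 1 to 3. Mutant IVD 3 and control IVD 3 were almost level, with the mutant array just above. The difference was 0.55 ± 0.21 (SE), 1.46-fold (unadjusted p = 0.021, limma adjusted p = 1). Hoxd11 lay between -0.11 and 0.13 in mutant IVD and between -0.22 and 0.19 in control IVD, and its difference was 0.07, with an interval of -0.29 to 0.44.

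Taken by paralogue group, as the mean of the genes on each array, group 10 was at 0.84 ± 0.02 in mutant IVD and -0.79 ± 0.45 in control IVD (SD, n = 4 and 3), a difference of 1.63. The single genes varied far more among the mutant IVD arrays than this mean did, with an SD of 0.29 for Hoxa10, 0.41 for Hoxc10 and 0.51 for Hoxd10. Group 9 was at 0.41 ± 0.27 in mutant IVD and -0.37 ± 0.17 in control IVD (SD, n = 4 and 3), a difference of 0.78. Group 11 was at 0.20 ± 0.17 in mutant IVD and -0.11 ± 0.18 in control IVD (SD, n = 4 and 3), a difference of 0.31. The group 10 and group 9 differences exceeded the pooled SD of 0.47 and 0.25 by more than 3 times, and that of group 11 its pooled SD of 0.18 by less than 2 times. By cluster, the difference was 1.24 in Hoxc and 1.24 in Hoxd, 0.81 in Hoxa and 0.01 in Hoxb, the last resting on Hoxb9 alone.

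**Figure D2:**
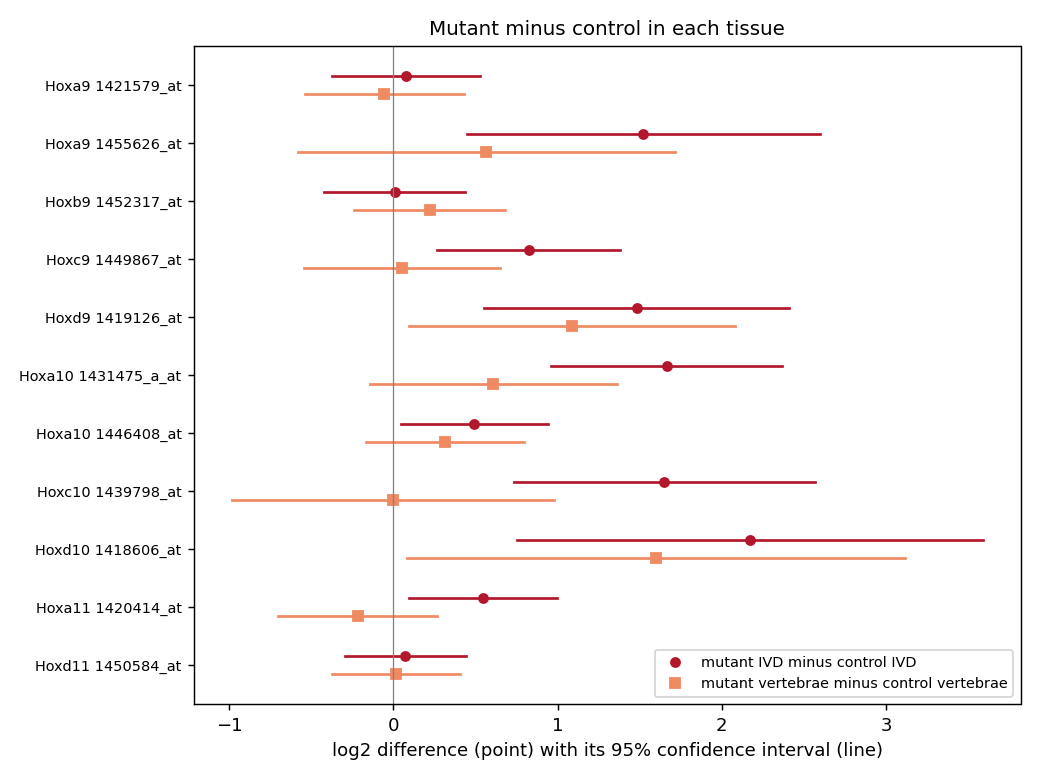
Log2 difference (horizontal axis) of each probe set in mutant IVD against control IVD (circles) and in mutant vertebrae against control vertebrae (squares), with lines for the 95% confidence interval from limma. The intervals of 8 probe sets lie above 0 in IVD, and those of Hoxd9 and Hoxd10 also in vertebrae.

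Of the members with a start region in the table used, Hoxd10, Hoxa10, Hoxa9 and Hoxd9 differed most on a single probe set. Their start regions are shown here with both of Hoxd11, a neighbour of Hoxd10 that was near 0. They are RefSeq sequences of build GRCm38.p6, each 250 bases before to 50 after a transcript start, and the table held a promoter for 6 of the 10 genes (Hoxa9, Hoxd9, Hoxa10, Hoxd10, Hoxa11 and Hoxd11). Both strands were searched for 5 motifs that do not overlap one another in these regions. The letters TTTATG, which Cdx proteins bind, stood in 11.9% of 32817 promoters of the same length. TGATTNAT, a joint site of Pbx and Hox proteins, stood in 3.22%. The TATA box, TATAAA, stood in 13.6%. GTCTAGAC, a palindrome that Smad proteins bind, stood in 0.213%. The CCAAT box stood in 37.4%. Capitals mark a match, which on the other strand is read in reverse complement. The Hoxd10 region (chr2:74691641-74691940, plus strand) held 1 CCAAT on the other strand, the Hoxd9 region (chr2:74697513-74697812, plus strand), the Hoxa9 region (chr6:52227321-52227620, minus strand) and the outer Hoxa10 region (chr6:52240805-52241104, minus strand) held none of the motifs, and the inner Hoxa10 region (chr6:52234890-52235189, minus strand) held 1 TATA box and 1 CCAAT, both on the other strand. The outer Hoxd11 region (chr2:74679308-74679607, plus strand) held 1 Cdx match and the inner Hoxd11 region (chr2:74682073-74682372, plus strand) 1 Pbx with Hox match, each on the other strand.
Hoxd10: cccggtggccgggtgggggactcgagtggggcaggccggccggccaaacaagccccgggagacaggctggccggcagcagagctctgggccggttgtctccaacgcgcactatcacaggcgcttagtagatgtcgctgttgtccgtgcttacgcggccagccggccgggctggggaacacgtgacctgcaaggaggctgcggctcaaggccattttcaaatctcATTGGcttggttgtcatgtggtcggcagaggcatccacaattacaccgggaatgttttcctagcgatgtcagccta
Hoxd9: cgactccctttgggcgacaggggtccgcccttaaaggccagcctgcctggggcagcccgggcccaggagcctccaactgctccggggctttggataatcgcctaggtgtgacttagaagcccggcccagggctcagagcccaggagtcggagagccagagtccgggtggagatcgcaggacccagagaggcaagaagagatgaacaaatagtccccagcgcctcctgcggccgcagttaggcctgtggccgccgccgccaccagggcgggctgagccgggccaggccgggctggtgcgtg
Hoxa9: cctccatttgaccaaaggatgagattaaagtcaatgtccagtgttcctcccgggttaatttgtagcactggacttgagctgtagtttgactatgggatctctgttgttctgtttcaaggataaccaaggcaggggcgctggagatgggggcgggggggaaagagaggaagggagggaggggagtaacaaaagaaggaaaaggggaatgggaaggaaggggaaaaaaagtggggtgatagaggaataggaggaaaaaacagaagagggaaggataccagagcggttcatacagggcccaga
Hoxa10 outer: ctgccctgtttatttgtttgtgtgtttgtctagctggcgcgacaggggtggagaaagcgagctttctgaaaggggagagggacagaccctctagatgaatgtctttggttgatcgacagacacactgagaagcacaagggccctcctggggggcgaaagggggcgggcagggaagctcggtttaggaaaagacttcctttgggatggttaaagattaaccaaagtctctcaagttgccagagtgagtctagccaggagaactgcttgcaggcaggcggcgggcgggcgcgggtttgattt
Hoxa10 inner: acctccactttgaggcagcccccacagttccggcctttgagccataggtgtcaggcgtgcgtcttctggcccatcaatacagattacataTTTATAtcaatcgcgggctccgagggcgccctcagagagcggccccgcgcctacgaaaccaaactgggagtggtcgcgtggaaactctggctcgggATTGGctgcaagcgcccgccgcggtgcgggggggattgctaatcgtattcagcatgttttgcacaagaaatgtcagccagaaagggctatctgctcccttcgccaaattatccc
Hoxd11 outer: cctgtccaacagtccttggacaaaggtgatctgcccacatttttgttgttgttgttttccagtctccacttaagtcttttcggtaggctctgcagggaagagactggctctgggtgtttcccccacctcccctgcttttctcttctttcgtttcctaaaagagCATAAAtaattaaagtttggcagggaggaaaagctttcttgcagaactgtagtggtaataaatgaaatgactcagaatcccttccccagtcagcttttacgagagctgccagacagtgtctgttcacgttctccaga
Hoxd11 inner: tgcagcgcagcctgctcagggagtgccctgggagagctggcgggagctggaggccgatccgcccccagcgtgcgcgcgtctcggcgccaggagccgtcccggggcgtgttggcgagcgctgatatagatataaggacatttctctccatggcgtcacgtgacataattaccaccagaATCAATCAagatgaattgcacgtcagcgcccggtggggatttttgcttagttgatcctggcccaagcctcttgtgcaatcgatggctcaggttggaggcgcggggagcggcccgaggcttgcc
The G and C content was 62.7% in the Hoxd10 region, 68.3% in Hoxd9, 54.3% and 57.3% in the outer and inner Hoxa10 regions and 62.0% in the inner Hoxd11 region, above the median of 52.7% over all promoters, and 49.7% in Hoxa9 and 45.7% in the outer Hoxd11 region, below it. The ratio of observed to expected CpG was 0.754 in Hoxd10, 0.573 in Hoxd9, 0.596 and 0.853 in the outer and inner Hoxa10 regions and 0.875 in the inner Hoxd11 region, above the median of 0.383, and 0.28 in Hoxa9 and 0.257 in the outer Hoxd11 region, below it. The RefSeq gene of Hoxd10 overlaps that of Hoxd11, so their signals may not be wholly separate. Between mutant IVD and control IVD the Hoxd10 probe set differed by 2.17 on the log2 scale and the Hoxd11 probe set by 0.07. Hoxd9 and Hoxd10 are next to each other on chromosome 2, Hoxa9 and Hoxa10 on chromosome 6, and Hoxc9 and Hoxc10 on chromosome 15.

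In vertebrae fewer members differed. No member passed limma's test between mutant vertebrae and control vertebrae at an adjusted p under 0.05, as 0% of all probe sets did (1177 had an unadjusted p under 0.05). There were 2 members 2-fold higher at an unadjusted p under 0.05, Hoxd9 and Hoxd10, against 0.195% of all probe sets, and in 1 of the 11, Hoxd9, every mutant vertebrae array lay above every control vertebrae array, against 3.63%. Hoxd9 had values of -0.55, 0.13 and 0.34 in mutant vertebrae 1 to 3, against -0.58, -2.01 and -0.76 in control vertebrae 1 to 3. Mutant vertebrae 1 was only just above control vertebrae 1, and control vertebrae 2 was the lowest of all 13 arrays. The difference was 1.09 ± 0.46 (SE), with an interval of 0.10 to 2.08 (unadjusted p = 0.0342, limma adjusted p = 0.998). Hoxd10 had values of -0.97, 0.52 and 0.37 in mutant vertebrae 1 to 3, against 0.00, -3.30 and -1.57 in control vertebrae 1 to 3. The groups overlapped, because mutant vertebrae 1 lay below control vertebrae 1, and the spread in control vertebrae was the widest of any member in any group. The difference was 1.60 ± 0.70 (SE), with an interval of 0.08 to 3.12 (unadjusted p = 0.0406, limma adjusted p = 0.998). Hoxc10 had values of -1.19, 0.00 and 0.54 in mutant vertebrae, against -0.07, -0.23 and -0.35 in control vertebrae. These overlapped fully, and the difference was 0.00, with an interval of -0.98 to 0.98. Hoxa10 had values of -0.23, 0.51 and 0.31 in mutant vertebrae on probe set 1431475_a_at, against -0.51, -0.89 and 0.16 in control vertebrae, a difference of 0.61 with an interval of -0.15 to 1.36. Over the 9 genes, 7 had a higher mean in mutant vertebrae, as did 56.1% of all genes, and the median difference was 0.22, against 0.03 over all genes. The count of 2 members 2-fold higher at an unadjusted p under 0.05 rested on few arrays. That count was 0 without control vertebrae 2, mutant vertebrae 2 or mutant vertebrae 3, 1 without control vertebrae 3 and 3 without mutant vertebrae 1. It was 0 by the unequal variance test that the study's methods name.

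Whether mutant and control differed more in IVD than in vertebrae was tested as the interaction of tissue and genotype. No member and 0% of all probe sets passed at an adjusted p under 0.05 (619 had an unadjusted p under 0.05), so a difference in response between the tissues was not shown for any member. At an unadjusted p under 0.05, 2 of the 11 had an interaction of more than 1 on the log2 scale upward, against 0.442% of all probe sets. They were Hoxc10, at 1.65 ± 0.62 (SE, limma adjusted p = 1), and Hoxa10 on 1431475_a_at, at 1.06 ± 0.47 (SE, limma adjusted p = 1). Without mutant vertebrae 1 or without control IVD 3, in both of which Hoxc10 was below -1, neither was counted. For Hoxd10 and Hoxd9, the pair with the largest differences in vertebrae, the interaction was 0.57 with an interval of -1.51 to 2.65 and 0.39 with an interval of -0.97 to 1.75, which leaves differences of either sign within the error.

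The normal tissues were compared as control IVD against control vertebrae. No member and 0% of all probe sets passed at an adjusted p under 0.05 (1105 had an unadjusted p under 0.05). With the array number as a random block, 0.0933% of probe sets passed and no member did. Of the 11 members 0 were 2-fold higher and 0 were 2-fold lower at an unadjusted p under 0.05, against 0.511% and 0.36% of all probe sets, and for 0 did control IVD lie wholly above or wholly below control vertebrae, against 3.54% and 3.9%. The widest differences were those of Hoxa10 on 1431475_a_at, at -0.64 with an interval of -1.39 to 0.12, and Hoxa9 on 1455626_at, at -0.47 with an interval of -1.62 to 0.68. The mean of the 9 genes was -0.45 ± 0.20 in control IVD and -0.40 ± 0.22 in control vertebrae (SD, n = 3 each). Within numbered control pairs, IVD minus vertebrae of this mean was 0.00, 0.14 and -0.28, with no common sign. Single members had 1 sign in all 3 pairs: Hoxa11 was at -0.17, -0.26 and -0.10, Hoxa10 at -0.15, -0.24 and -1.53 on 1431475_a_at and at 0.12, 0.12 and 0.05 on 1446408_at. The Hoxa10 probe sets thus went opposite ways. How many of all probe sets had 1 sign in all 3 pairs was not counted, so nothing is read from these signs.

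In the mutant the same mean was 0.51 ± 0.13 in IVD and -0.02 ± 0.35 in vertebrae (SD, n = 4 and 3). Between mutant IVD and mutant vertebrae 0.0155% of all probe sets passed at an adjusted p under 0.05 (3634 had an unadjusted p under 0.05), and no member was among them. Hoxc10 alone was 2-fold higher at an unadjusted p under 0.05, against 1.78% of all probe sets, and Hoxc10 alone had every mutant IVD array above every mutant vertebrae array, against 3.41%. Counts of 1 in 11 are too few to set against these shares. Its difference was 1.42 ± 0.42 (SE, limma adjusted p = 0.35), and 0.93 without mutant vertebrae 1. Hoxa11, with a difference of 0.59 ± 0.21 (SE, limma adjusted p = 0.447), was next by p. Over the 9 genes, 8 had a higher mean in mutant IVD, as did 50.1% of all genes, with a median difference of 0.54 against 0.00 over all genes.

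Across the whole Hox family, 33 genes had a probe set. The members stood beside 10 measured genes of groups 1 to 4, 9 of groups 5 to 8 and 5 of groups 12 and 13, and none of these passed the test at an adjusted p under 0.05 in any of the 5 comparisons. Between mutant IVD and control IVD, 7 of the 9 members were higher at an unadjusted p under 0.05 on the mean of a gene's probe sets, against 2.06% of all genes (0.951% were lower). Of groups 1 to 4, 1 of 10 was so, Hoxb4 at 0.38 ± 0.17 (SE), and the median difference was 0.06. Of groups 5 to 8, 0 of 9 and of groups 12 and 13, 0 of 5 were so, with medians of 0.04 and 0.03. Hoxd8, the neighbour of Hoxd9 on the anterior side, was at 0.51 ± 0.54 (SE), and Hoxd12 and Hoxd13, on the other side of Hoxd11, were at 0.03 and 0.02. Hoxa5, a gene of the cervical and thoracic region, was at 0.51 ± 0.25 (SE), Hoxa7 at -0.01, and Hoxc8, the neighbour of Hoxc9, at 0.23 ± 0.40 (SE). In vertebrae the genes with the largest negative values were Hoxc8, at -1.38 ± 0.43 (SE, limma adjusted p = 0.999), and Hoxc4, at -0.85 ± 0.40 (SE, limma adjusted p = 0.999). The positive values of the Hoxc cluster there were those of Hoxc13, at 0.44 ± 0.41 (SE), and Hoxc9, at 0.05. Neither was past an unadjusted p of 0.05. Hoxc8, which is no member, was also higher in mutant IVD than in mutant vertebrae, by 1.36 ± 0.40 (SE). Its interaction of tissue and genotype was 1.60 ± 0.59 (SE), beside 1.65 for Hoxc10.

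**Figure D3:**
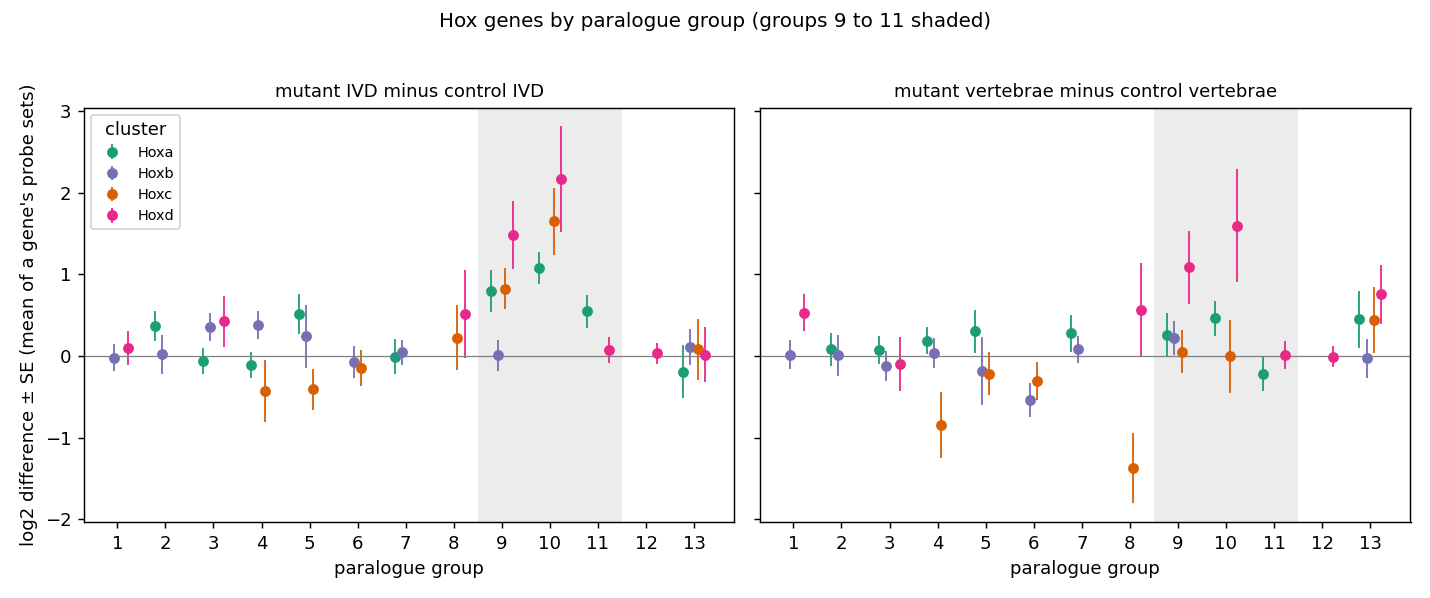
Log2 difference ± SE of every measured Hox gene (vertical axis) by paralogue group (horizontal axis) and cluster (colour) in mutant IVD against control IVD (left panel) and mutant vertebrae against control vertebrae (right panel), with groups 9 to 11 shaded. In IVD the values above 1 belong to Hoxd9, Hoxa10, Hoxc10 and Hoxd10, and Hoxd11 and groups 12 and 13 lie near 0.

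Lists of genes known to act with or on Hox genes were measured in mutant IVD against control IVD, where 58.2% of all genes had a higher mean in mutant IVD. Of 8 measured cofactor genes 7 had a higher mean in mutant IVD than in control IVD, with a median of 0.21, and none was past an unadjusted p of 0.05. Meis1 and Pbx3 had the largest values, 0.64 ± 0.38 and 0.66 ± 0.41 (SE). Of 17 Polycomb and trithorax genes 11 were higher, with a median of 0.05, and Jarid2, a subunit of Polycomb complex 2, was at 0.59 ± 0.28 (SE). The list of Cdx and Gdf11 signalling had a median of 0.03 over 12 genes, with Gdf11 at -0.15 ± 0.22 and its receptor Acvr2b at 0.24 ± 0.17 (SE). The retinoic acid list had a median of 0.14 over 15 genes, with the binding protein Crabp1 at 1.74 ± 0.85 (SE). In each of these 4 lists 0 genes passed at an adjusted p under 0.05 by limma and 0 at an unadjusted p under 0.05.

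The members did not all vary together. Over the 13 arrays Hoxd9 had a Pearson r of 0.89 with the mean of the other members, Hoxa10 0.85, Hoxc10 0.82, Hoxd10 0.75, Hoxa9 0.66 and Hoxc9 0.64. Hoxa11 was lower at 0.42, and Hoxd11 and Hoxb9 were at 0.16 and 0.15. These values include the difference between groups. The highest r of a pair was that of Hoxd9 and Hoxd10, at 0.87 over all arrays and 0.67 after the group means were removed, and the lowest was that of Hoxa9 and Hoxd11, at -0.36. The SD over arrays placed Hoxd10 at the 99.2 percentile of all probe sets, and Hoxb9 at 24.9 and Hoxd11 at 9.53. Outside the Hox family the genes most like the mean of the 9 members over the 13 arrays were Klhl24 (r = 0.91), Atxn7l3b (0.90), Kank4 (0.90), D430019H16Rik (0.89), Tshz2 (0.87), Mecom (0.86), C77080 (0.86), Axin2 (0.86), Zfp618 (0.85) and Mgat5 (0.85). They were picked as the highest of all named genes, and a high r over 13 arrays is a description only. Axin2, for one, averaged 0.33 in mutant IVD and -0.25 in control IVD, and 0.07 in mutant vertebrae and -0.06 in control vertebrae. The largest spread among them was that of D430019H16Rik, at 1.07 in mutant IVD and -0.23 in control IVD.

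The arrays also differed in other tissues' transcripts and in the sex of the embryos. The mean of 9 measured fetal liver genes was 2.77 in mutant IVD 3, 3.60 in mutant IVD 4, 5.41 in control IVD 1 and 5.58 in control vertebrae 1, and at most 0.21 elsewhere, and 25 neuronal genes averaged 2.42 in mutant IVD 3, against 1.91 in control vertebrae 3. Xist, the RNA of the inactive X chromosome, was low and Y-linked genes were high in mutant IVD 1, 2 and 4 and mutant vertebrae 1 and 2, and all 6 control arrays, mutant IVD 3 and mutant vertebrae 3 had the opposite pattern. Whether a defining gene of IVD or cartilage is present cannot be read from centred values, but the fibrous matrix list lay between 0.37 and 1.21 in control IVD and between -0.51 and -0.13 in control vertebrae. The 3 Tgfbr2 probe sets differed by 0.25, -0.02 and 0.10 between mutant IVD and control IVD and by 0.13, -0.01 and -0.84 between mutant vertebrae and control vertebrae, all at an unadjusted p over 0.1, and whether they lie in the deleted part is not known here.

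These array differences were set beside the posterior Hox genes. The mean of the 9 members was 0.68, 0.46, 0.51 and 0.38 in mutant IVD 1 to 4, against -0.23, -0.51 and -0.61 in control IVD 1 to 3. It was -0.42, 0.11 and 0.25 in mutant vertebrae 1 to 3, against -0.23, -0.65 and -0.33 in control vertebrae 1 to 3. All mutant IVD arrays were above all control IVD arrays, and mutant vertebrae 1 was within the range of control vertebrae. The 4 arrays with liver transcripts include both high and low values of this mean. Without them the mutant IVD and control IVD differences were 2.15 for Hoxd10, 1.88 for Hoxa10, 2.18 for Hoxc10, 2.11 for Hoxa9 and 1.93 for Hoxd9. Of the neuron list, 23 of 25 genes had a higher mean in mutant IVD than in control IVD, with a median of 0.71, and of the spinal motor neuron list 10 of 10, with a median of 0.27. Mutant IVD 3 had the highest neuronal mean, and its posterior Hox mean of 0.51 was between those of the other mutant IVD arrays. Its spinal motor neuron mean, 1.07, was also the highest of the series. Single members differed there. Hoxd10, at 1.47, had its highest value of the series in mutant IVD 3. Hoxc10, at 0.87, and Hoxa10, at 0.00 on 1431475_a_at, had their lowest of the mutant IVD arrays. Control vertebrae 3, also high in neuronal genes, had a posterior Hox mean of -0.33. With the neuron mean as a covariate Hoxd10 differed by 1.98 and Hoxd9 by 1.35.

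Sex moved with genotype, since 3 of the 4 mutant IVD arrays and none of the control IVD arrays had the Y-linked pattern. The Y-linked list had a median difference of 1.40 in mutant IVD against control IVD over 4 genes, and Xist differed by -5.15. The arrays of high Xist leave mutant IVD 3 alone against 3 control IVD arrays. That array also had a neuronal mean of 2.42 and a fetal liver mean of 2.77. Its fibrous matrix mean was -1.08, against 0.37 to 1.21 in control IVD, so tissue content was not matched in this comparison. The difference was 2.82 for Hoxd10, 1.80 for Hoxa9 and 1.70 for Hoxd9. It was 1.33 for Hoxc10, 1.05 for Hoxa10 on 1431475_a_at and 0.16 for Hoxa11. There the lone mutant array was assumed to vary like the other groups, and 3 members were 2-fold higher at an unadjusted p under 0.05, against 2.48% of all probe sets. The sclerotome list, genes of the somite-derived mesenchyme from which both tissues form, had a higher mean in mutant IVD for 10 of 11 genes, with a median of 0.46. Its mean was 0.93, 0.33, -0.16 and 0.42 in mutant IVD 1 to 4, against -0.04, 0.39 and -0.24 in control IVD 1 to 3, and it had an r of 0.59 with the posterior Hox mean over 13 arrays. Other lists had an r of like size: 0.59 for the Hox cofactors, 0.52 for Y-linked genes, -0.52 for Xist and 0.48 for endothelium. The endothelium list was higher for 15 of 17 genes, with a median of 0.31. The lists of skeletal muscle, erythroid, neural progenitor, Schwann cell and neural crest, lumbar and limb level, and metanephric and nephric mesenchyme genes had medians between -0.06 and 0.24. Of the neural progenitor list 13 of 15 genes were higher. At an unadjusted p under 0.05 by limma, 3 of 15 neural progenitor, 3 of 17 endothelium and 2 of 11 sclerotome genes were higher. Of all genes 2.06% were so. In these 3 lists 0 genes were lower at that p. The lists of cartilage, fibrous matrix and notochord genes had medians of -0.24, -0.26 and -0.29. The part of these tissues in the posterior Hox differences was not tested further.

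**Figure D4:**
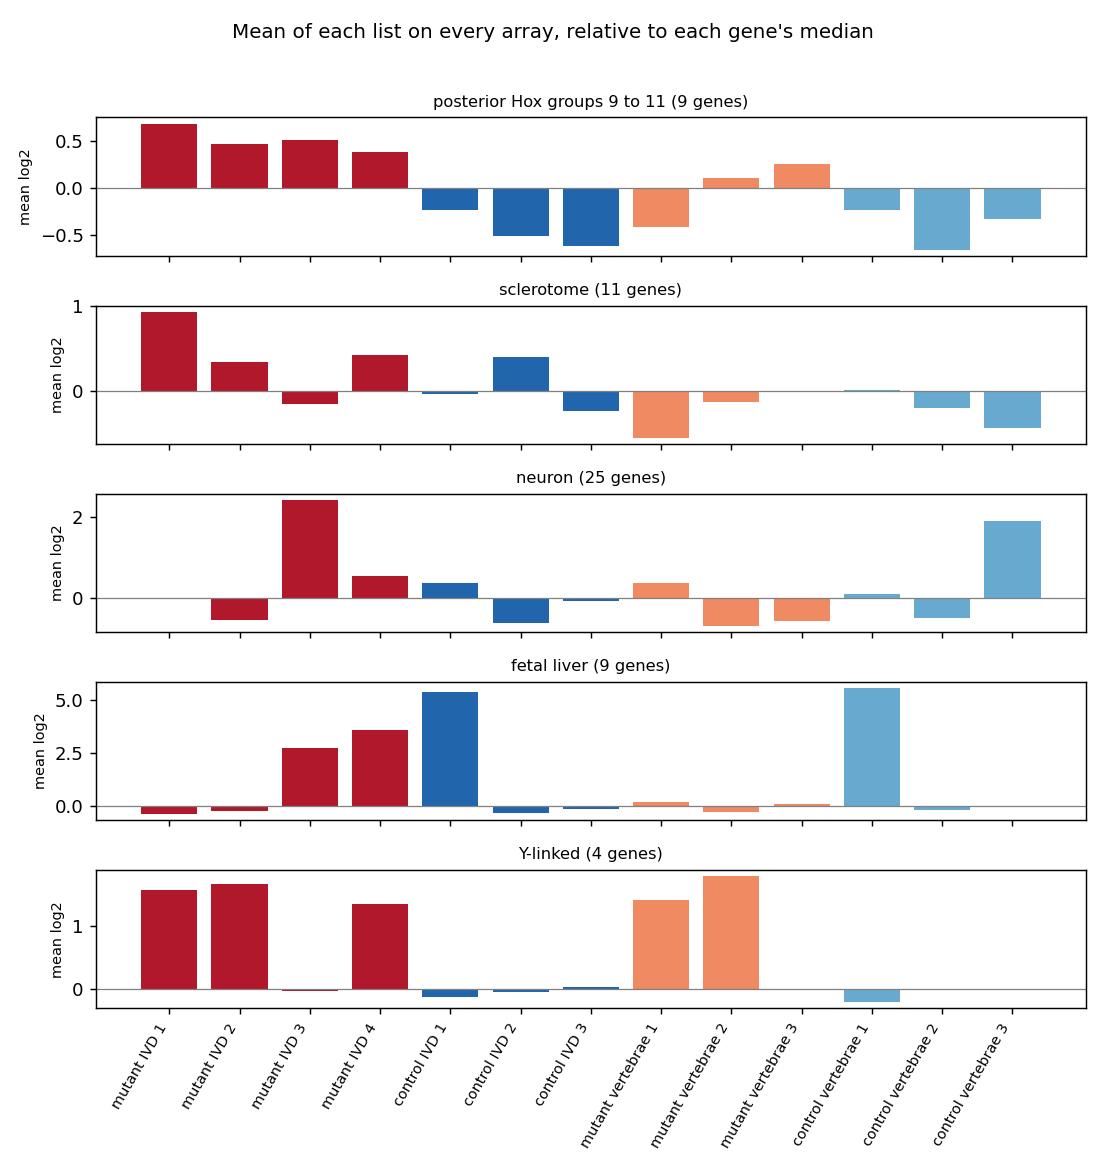
Mean log2 value on each of the 13 arrays (bars, relative to each gene's median) of the 9 posterior Hox genes, of the sclerotome, neuron and fetal liver lists and of Y-linked genes, with mutant arrays left of control arrays within each tissue. The posterior Hox mean is above 0.3 on all mutant IVD arrays and below -0.2 on all control IVD arrays, while neuronal transcripts peak on mutant IVD 3 and control vertebrae 3.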

How the data were processed

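The arrays were Affymetrix mouse GeneChips, hybridized after amplification of 50 ng of total RNA by oligo(dT) priming, so signals come mostly from the 3′ part of transcripts. The authors subtracted background and normalized by RMA at default settings, and the deposited values are log2 signals centred on each probe set's median. How far a signal lay above background is not known, and precision is set by the count of arrays. The genome build of the array annotation is not given in the sources used here.

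Probe sets were named from the platform annotation: 34945 had 1 gene name, 932 several and 9160 none, and 64 control probe sets were left out. A model with 1 coefficient per group was fitted to all 13 arrays with lmFit and eBayes of limma 3.58.1 in R 4.3.3, tests were two-sided, and p was adjusted over 45037 probe sets. Group and gene means used all probe sets of a gene. The study's threshold was 2-fold at p under 0.05. The method was tested on simulated data.

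All 10 members, the other Hox genes, up to 3 genes of each other list with the smallest p, and the 10 genes most like the members were named by rule, while Hoxd12, Hoxd13, Hoxa7, Hoxc8 and Hoxc4 are given as neighbours or extremes. The members and lists were chosen with earlier results of these data known, so their counts are no independent support. Alternatives are given in the closing section.

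Control arrays of the same number correlated after removal of group means with r = 0.80, 0.57 and 0.57 and were taken as pairs, since the control tissues came from the same mice. Mutant arrays of the same number did not (r = -0.40, 0.24 and -0.15). The control pairs were used only in the differences within pairs and in the fits with a block. The main fit held no block, so its intervals treat the paired control arrays as independent. No label ties an array number to a mouse.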

Additional observations from a re-analysis of the deposited data

Results flagged for a closer look

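Of 35 values tested, among them the member probe sets and list means in mutant IVD, 2 had an array far from the other 3, by Dixon's test at the 95% level, which chance gives in about 1 in 20 groups. The mean of the skeletal muscle list was 1.87 in mutant IVD 4, and the gap to the next array was 0.887 of the range. Xist was 0.87 in mutant IVD 3 and far lower in the other mutant IVD arrays, with a gap of 0.925 of the range. No posterior Hox probe set was set apart in this way. In mutant IVD 4 the mean of the 9 posterior Hox genes was 0.38, the lowest of its group, and in mutant IVD 3 it was 0.51.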

How the results depend on the processing

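No member passed an adjusted p under 0.05 under any alternative run, in any comparison. The number of members 2-fold higher in mutant IVD against control IVD, 5 of 11, was 3 by the unequal variance test and 3 in arrays with high Xist only, and 4 to 5 when each array was left out. Their median difference of 0.83 was 1.52 with only the more variable probe sets (SD above the median), which drops members of low variance, and 1.48 with 1 probe set per gene, and 0.78 to 0.96 with an array left out. In mutant vertebrae against control vertebrae the count of 2 was 0 by the unequal variance test, 1 with the 2 groups alone, 1 with the replicate block over all arrays, 0 in arrays with high Xist and 0 to 3 with an array left out, and the median of 0.22 was 0.57 with the more variable probe sets and 0.054 to 0.47 with an array left out. In mutant IVD against mutant vertebrae the count of 1 was 0 by the unequal variance test, with array weights and in arrays with high Xist, and 0 to 1 with an array left out, and the median of 0.54 was 0.17 in arrays with high Xist and 0.32 to 0.68 with an array left out. For the interaction the count of 2 was 1 with the replicate block, with the more variable probe sets and with neuron, fetal liver or Y-linked means as covariates, 0 with array weights and in arrays with high Xist, and 0 to 2 with an array left out. Its median of 0.57 was 0.30 with array weights, 0.90 without the 4 liver arrays, 0.24 in arrays with high Xist and 0.33 to 0.78 with an array left out. In control IVD against control vertebrae the median was -0.21 to -0.09 with an array left out. The cause of these shifts was not tested. With the replicate block over all arrays, mutant IVD against control IVD gave 2.13 for Hoxd10, 1.72 for Hoxc10 and 1.80 for Hoxa9. It gave 1.62 for Hoxd9 and 1.47 for Hoxa10, and the block moved no other call. Number 4 occurs in mutant IVD alone, so the block took up that array, and these are the differences without mutant IVD 4. For them the block is no check apart from leaving that array out. The arrays with high Xist, those without liver transcripts and the fixed block of control arrays were chosen after seeing the data. No member probe set is of the kind shared between transcripts of different genes, so leaving that kind out altered nothing.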

Other observations

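Beside the Hox genes themselves, an antisense transcript of the Hoxd cluster was measured. Hoxd3os1, on probe set 1460056_at, averaged 1.16 in mutant IVD and -0.60 in control IVD, a difference of 1.76 ± 0.57 (SE, limma adjusted p = 1), and -1.13 in mutant vertebrae and -0.74 in control vertebrae, a difference of -0.39 ± 0.61 (SE). Its other probe set, 1430263_at, differed by 0.38 ± 0.37 between mutant IVD and control IVD. Hoxa11os, transcribed opposite Hoxa11, differed by 0.37 ± 0.16 and 0.12 ± 0.20 on its pair of probe sets (SE, limma adjusted p = 1 for each). These transcripts were looked up after the values of the posterior Hox genes had been seen.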
